A study of Homo sapiens with 15 samples.

Results

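The 34 genes described here encode the folding and quality control machinery of the endoplasmic reticulum (ER) and the sensors that adjust it. They were listed by name and role, as unfolded protein response sensors, chaperones, disulfide enzymes and genes of ER-associated degradation (ERAD), at a time when earlier results of these data were known. Each symbol matched a single Ensembl ID among the 62754 in the table, and all 34 had enough reads to be among the 19781 genes tested. The libraries were of messenger RNA from NCI-H69, an established human line labelled as classic small cell lung cancer, with neuroendocrine features. The groups were H69 cells given FB23-2, H69 cells given CS2 and H69 cells given the solvent DMSO, with 3 libraries each that the series calls biological replicates. The series names both compounds as inhibitors of FTO, an enzyme that removes the m6A mark from RNA, and CS2 is a name also used for brequinar, which is known to inhibit the pyrimidine enzyme DHODH. Neither doses nor times are stated, so differences between the compounds cannot be tied to equal exposure.

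Proteins of the secretory pathway fold in the ER with the help of the HSP70 chaperone HSPA5, the lectins calnexin and calreticulin, and enzymes that form and rearrange disulfide bonds. When unfolded chains accumulate, the membrane sensors IRE1 (encoded by ERN1), ATF6 and PERK (encoded by EIF2AK3) signal to the nucleus. IRE1 splices XBP1 mRNA into the form that encodes an active transcription factor, ATF6 is cut to release one, and PERK slows translation and favours ATF4. XBP1 and ATF6 are known to act through the ER stress response element (ERSE) in promoters of chaperone genes. Chains that fail to fold are drawn out of the ER and degraded by the SEL1L and SYVN1 ligase complex and its partners.

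FB23-2 libraries held 32352835 to 43957839 counts, CS2 libraries 29916267 to 33663742 and DMSO libraries 31404658 to 45022633, and 3 counts equalled 0.0666 to 0.101 CPM, counts scaled to library size. Of the markers of small cell lung cancer, INSM1 averaged 611 CPM with FB23-2, 702 with CS2 and 858 with DMSO, and CHGA averaged 414 CPM with FB23-2, 504 with CS2 and 604 with DMSO. The markers did not move one way: NCAM1 averaged 671 CPM with FB23-2, 302 with CS2 and 543 with DMSO, SCG2 282, 194 and 159, and SCG3 321, 293 and 216 in FB23-2, CS2 and DMSO libraries, while CHGB averaged 259 CPM with FB23-2, 545 with CS2 and 212 with DMSO. Markers of other cells were low: the leukocyte gene PTPRC reached at most 1.62 CPM with CD3E at 0, 3 endothelial genes summed to at most 2.46 CPM, and 3 plasma cell genes summed to 17.6 to 20.6 CPM with FB23-2, 30.2 to 33.9 with CS2 and 18.0 to 23.2 with DMSO, nearly all SDC1, with JCHAIN at 0. The 4 fibroblast genes, nearly all COL1A2 with DCN at 0, summed to 10.5 to 15.3 CPM with FB23-2, 32.9 to 39.6 with CS2 and 52.5 to 54.3 with DMSO, and their part in the results was not tested. FB23-2 replicate 2 stood apart: its counts differed from the other FB23-2 libraries with a chi-square per degree of freedom of 48.1 and 50.1, against 4.21 to 14.1 for other pairs within a group, and mitochondrial genome genes took 11.0% of its counts, against 6.83% and 6.91%. The mitochondrial share was 8.24% ± 2.4 with FB23-2, 8.22% ± 0.88 with CS2 and 5.46% ± 0.26 with DMSO (SD, n = 3 each).

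With FB23-2, 28 of the 34 genes rose and 1 fell, against 25.4% and 26.7% of all genes tested. With CS2, 9 rose and 5 fell, against 24.3% and 25.3% of all genes. Of the 14 genes called with CS2, 9 were also higher with FB23-2, while XBP1, ERN1, SEL1L and EDEM3 were lower with CS2 and higher with FB23-2. Shares of all genes called alike or in opposite directions by both compounds were not counted. Whether these joint calls are particular to the set was therefore not tested. Between the compounds, 24 genes were higher with FB23-2 than with CS2 and 1 was lower, against 29.7% and 30% of all genes. Here and below, rose and fell refer to calls by edgeR's quasi-likelihood test, with p-values adjusted by Benjamini and Hochberg's method across the 19781 genes and a threshold of 0.05. The comparisons with DMSO share the DMSO libraries, and in either direction 52% of all genes were called with FB23-2, 49.7% with CS2 and 59.6% between the compounds. Without FB23-2 replicate 2, 29 members rose and 1 fell with FB23-2, 26 were higher and 1 lower with FB23-2 than with CS2, and 10 rose and 9 fell with CS2. The calls over all genes moved too. Without that library 5462 of all genes rose and 5562 fell with CS2, against 4815 and 5014 with all libraries. With FB23-2 4938 rose and 5189 fell (5015 and 5275 with all libraries). Between the compounds 5755 were higher and 5852 lower (5870 and 5929). The number that fell with CS2 was 3 without CS2 replicate 1 and 2 without DMSO replicate 2, and the number lower with FB23-2 than with CS2 was 3 without FB23-2 replicate 3. Over all genes, the counts lower in the same comparisons and runs were 4511, 4372 and 5625. With mitochondrial genome genes left out before scaling, 28 rose and 1 fell with FB23-2, and 9 rose and 5 fell with CS2. Over all genes, 5169 rose and 5150 fell with FB23-2 in that run, and 4852 rose and 4962 fell with CS2.

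The ERSE was looked for in the promoters of the set, and the matches are shown because genes that rose and genes that did not both hold one. RefSeq windows from 250 bases before to 50 after a gene's start (GRCh38.p14) were available for 31 of the 34 genes, and DERL1, DERL3 and PDIA3 were named only. The ERSE was searched as CCAAT, then 9 bases of any kind, then CCACG, and ERSE-II as ATTGGNCCACG, both on either strand. An ERSE was found in windows of 8 of 31 genes (25.8%), against 21 of 15843 protein-coding genes with a window (0.133%), so 13 other genes held one too. ERSE-II was found in 3 of 31 (9.68%), against 15 of 15843 (0.0947%). Because the element is known from promoters of ER chaperone genes, which are members here, these shares are not an independent test of the set. The ATTGG of ERSE-II is the reverse complement of CCAAT. The element is printed in its own direction with its fixed letters in capitals, on GRCh38.p14, as follows.
HSPA5 ERSE (chr9:125241391-125241409): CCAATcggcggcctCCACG
HSP90B1 ERSE (chr12:103930216-103930234): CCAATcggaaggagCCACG
HSP90B1 ERSE (chr12:103930321-103930339): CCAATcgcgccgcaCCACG
CALR ERSE (chr19:12938384-12938402): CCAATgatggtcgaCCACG
CANX ERSE (chr5:179698778-179698796): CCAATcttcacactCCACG
PDIA6 ERSE (chr2:10812853-10812871): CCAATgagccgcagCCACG
XBP1 ERSE (chr22:28800603-28800621): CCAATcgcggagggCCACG
CRELD2 ERSE (chr22:49918554-49918572): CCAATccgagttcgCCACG
ERO1B ERSE (chr1:236282183-236282201): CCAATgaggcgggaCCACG
HERPUD1 ERSE-II (chr16:56932025-56932035): ATTGGgCCACG
HYOU1 ERSE-II (chr11:119057380-119057390): ATTGGaCCACG
SDF2L1 ERSE-II (chr22:21642114-21642124): ATTGGtCCACG
In HYOU1 a further ERSE-II match with the same letters lies at chr11:119057274-119057284. Elements run against the direction of the gene in CALR, CRELD2, ERO1B, HYOU1, SDF2L1 and the second of HSP90B1, and with it in the others. CANX has 4 windows in the table, of which 3 hold the same match.

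Other motifs were searched on both strands in the same windows. The core of the unfolded protein response element, TGACGTGG, was found in DNAJC10 and HYOU1 (6.45% of 31 genes, against 1.05% of 15843), and in HYOU1 it overlaps the ERSE-II match. The core TGATGNAA, part of the element bound by ATF4 with C/EBP factors, was found in HERPUD1 alone (3.23%, against 3.6%). CCAAT by itself was in windows of 26 of the 31 genes (83.9%), against 42.1% of all genes. The 250 bases before the start are printed for the chaperone HSPA5, for HERPUD1, the gene with the largest change, and for SDF2L1, which did not pass with all libraries in any comparison. Letters of a match to ERSE, ERSE-II or either core are in capitals and the sequences run in the direction of the gene.
HSPA5 (chr9:125241344-125241593, minus strand): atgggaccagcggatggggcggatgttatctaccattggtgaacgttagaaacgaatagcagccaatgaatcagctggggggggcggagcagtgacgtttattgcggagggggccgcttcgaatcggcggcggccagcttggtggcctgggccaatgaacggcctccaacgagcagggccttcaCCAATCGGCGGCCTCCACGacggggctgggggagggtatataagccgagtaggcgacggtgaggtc
HERPUD1 (chr16:56931892-56932141, plus strand): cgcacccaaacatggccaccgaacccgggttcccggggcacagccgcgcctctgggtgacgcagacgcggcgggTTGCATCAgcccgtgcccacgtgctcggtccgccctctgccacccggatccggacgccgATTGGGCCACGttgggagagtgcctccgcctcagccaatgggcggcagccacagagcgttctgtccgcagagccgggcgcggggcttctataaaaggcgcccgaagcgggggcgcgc
SDF2L1 (chr22:21642052-21642301, plus strand): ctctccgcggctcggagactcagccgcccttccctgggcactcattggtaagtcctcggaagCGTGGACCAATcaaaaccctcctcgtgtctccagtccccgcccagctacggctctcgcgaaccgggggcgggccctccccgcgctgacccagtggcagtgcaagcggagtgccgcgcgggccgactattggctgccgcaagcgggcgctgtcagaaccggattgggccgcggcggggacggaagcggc
A match describes letters in a window and does not show that a factor bound there in these cells.

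Of the 11 genes with an ERSE or ERSE-II match, 8 rose with FB23-2 (25.4% of all genes) and 0 fell (26.7%). Their log2 fold changes had a median of 0.62. Of the 20 genes with a window and neither match, 18 rose and 1 fell, with a median of 0.73. SDF2L1, CRELD2 and ERO1B hold a match and did not pass with FB23-2. ERN1 and SEL1L, 2 of the genes with the largest changes, hold no exact match to either. Imperfect elements were not counted as matches, and whether a match bears on the change was not tested. With CS2 the medians were 0.12 with a match and 0.04 without.

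**Figure D1:**
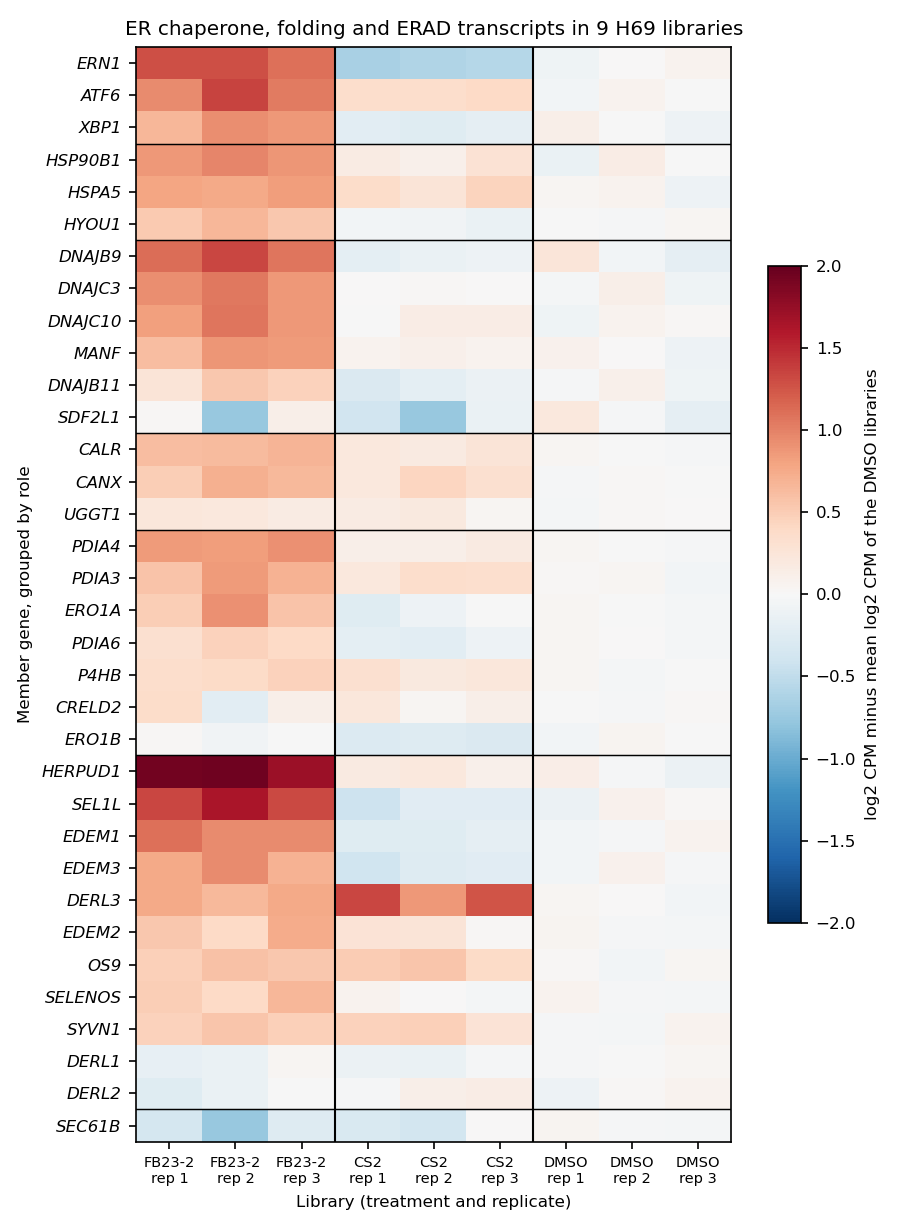
Levels of the 34 genes in each of the 9 libraries, as log2 CPM minus the mean log2 CPM of the DMSO libraries (colour), with genes in rows grouped by role and libraries in columns. The FB23-2 columns are red for most rows, the CS2 columns are pale or blue outside ATF6, HSPA5, DERL3, OS9, SYVN1 and a few others, and SDF2L1 and SEC61B are blue in FB23-2 replicate 2.

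Together the 34 genes took 1.14% ± 0.022 of all counts with FB23-2, 0.798% ± 0.020 with CS2 and 0.706% ± 0.015 with DMSO (SD, n = 3 each). No library of a group overlapped those of another in this share. CANX, HSP90B1, HSPA5 and CALR made up 51.0% to 51.8% of it with FB23-2, 52.6% to 54.0% with CS2 and 49.0% to 50.5% with DMSO. Such shares are relative to the rest of the library, and a change in RNA per cell or in the makeup of the culture cannot be told apart from them.

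To compare genes with each other, counts were divided by the length of each gene's merged exons, giving TPM. TPM are counts per length, scaled to the same sum in each library. With DMSO the levels ran from 5.06 ± 0.072 TPM for DERL3 to 843 ± 1.1 TPM for the lectin calreticulin, CALR (SD, n = 3). Behind CALR came CANX at 784 ± 24, HSPA5 at 733 ± 38 and HSP90B1, the HSP90 of the ER, at 689 ± 76 TPM. The DMSO libraries of CANX, HSPA5 and HSP90B1 all overlapped each other. The oxidoreductases PDIA3 (435 ± 14), P4HB (301 ± 6.3) and PDIA4 (270 ± 0.58) followed. At the low end stood EDEM1 (7.88 ± 0.53), the sensor ERN1 (10.2 ± 0.77) and DERL2 (16.2 ± 1.3). Merged exons can be longer than any single transcript, and those of DNAJC10 are the longest here (21835 bases), which lowers its TPM.

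**Figure D2:**
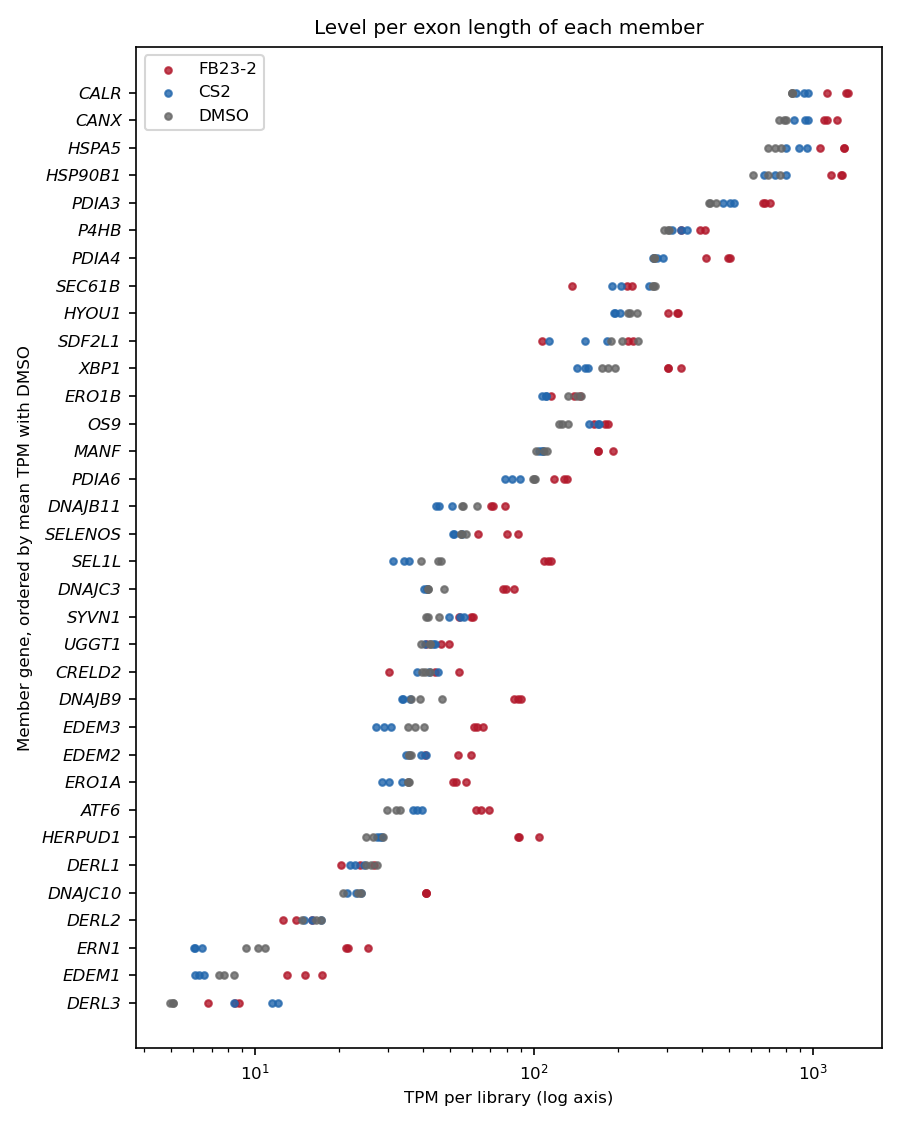
TPM of each gene in each library on a log axis, with genes ordered by their mean with DMSO and points coloured by treatment. CALR, CANX, HSPA5 and HSP90B1 lie at the top and DERL3, EDEM1 and ERN1 at the bottom, and the FB23-2 points of HERPUD1 and SEL1L lie far to the right of the others in their rows.

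ERN1, ATF6 and XBP1, the 3 genes at the head of the response, all rose with FB23-2 (25.4% of all genes). ERN1 (ENSG00000178607, chromosome 17, 64039142 to 64130819, minus strand, GRCh38), the gene of the IRE1 kinase and endonuclease, had 71.3, 71.1 and 62.3 CPM with FB23-2, 18.4, 19.1 and 19.5 CPM with CS2, and 27.4, 29.2 and 30.6 CPM with DMSO. The FB23-2 libraries were the highest and the CS2 libraries the lowest, with no overlap between any groups. The log2 fold change, given with its standard error (SE), was 1.23 ± 0.09 for FB23-2 against DMSO (adjusted p = 1.22e-09), -0.615 ± 0.09 for CS2 against DMSO (adjusted p = 1.6e-05) and 1.84 ± 0.09 for FB23-2 against CS2 (adjusted p = 4.73e-12), all by edgeR. The ERN1 calls against DMSO held in all 18 alternatives run.

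XBP1 (ENSG00000100219, chromosome 22, 28794555 to 28800597, minus strand), whose mRNA IRE1 splices, had 236, 282 and 271 CPM with FB23-2, 128, 125 and 131 CPM with CS2, and 161, 147 and 138 CPM with DMSO. The groups did not overlap, with CS2 just under DMSO. XBP1 rose by 0.83 ± 0.08 on the log2 scale with FB23-2 (edgeR adjusted p = 6.97e-08). With CS2 it was lower by -0.21 ± 0.08 (edgeR adjusted p = 0.0355), a call that was lost without CS2 replicate 1 (-0.21, adjusted p = 0.0751), 2 (-0.19, 0.12) or 3 (-0.22, 0.0626) or without DMSO replicate 1 (-0.15, 0.186) or 2 (-0.22, 0.0728). Counts per gene do not separate spliced from unspliced XBP1 mRNA, so activity of IRE1 was not measured.

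ATF6 (ENSG00000118217, chromosome 1, 161766294 to 161964070, plus strand) had 127, 168 and 135 CPM with FB23-2, 83.9, 84.4 and 87.1 CPM with CS2, and 63.3, 68.9 and 65.6 CPM with DMSO. Of these 3 genes it alone rose with both compounds, and the groups stood in 3 separate ranges. The log2 fold change was 1.12 ± 0.09 with FB23-2 (edgeR adjusted p = 6.42e-09) and 0.37 ± 0.09 with CS2 (edgeR adjusted p = 0.00259). At 197.8 kb ATF6 has the longest span, from first to last exon, of the 34 genes. With counts corrected for gene span in each library, its CS2 value became 0.76.

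The HSP70 and HSP90 chaperones rose with FB23-2, 3 of 3 (25.4% of all genes). HSPA5 (ENSG00000044574, chromosome 9, 125234853 to 125241330, minus strand), also called BiP, had 1302, 1276 and 1341 CPM with FB23-2, 972, 907 and 1029 CPM with CS2, and 774, 790 and 704 CPM with DMSO. The 3 groups again formed separate ranges, with CS2 between FB23-2 and DMSO. Its log2 fold change was 0.79 ± 0.07 with FB23-2 (edgeR adjusted p = 2.74e-08), 0.36 ± 0.07 with CS2 (edgeR adjusted p = 3.76e-04) and 0.43 ± 0.07 for FB23-2 against CS2 (edgeR adjusted p = 3.75e-05). HSP90B1 rose by 0.91 ± 0.08 with FB23-2 and had 0.18 ± 0.08 with CS2 (edgeR adjusted p = 0.0604, past the threshold in 5 of 18 alternatives). HYOU1, a large HSP70 relative that recharges HSPA5 with nucleotide, rose by 0.58 ± 0.07 with FB23-2 and had -0.09 ± 0.07 with CS2. Of the windows of 50 bases in HSPA5 transcripts, 9.5% are also found in other genes.

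Of the 6 J proteins and other cofactors of HSPA5, 5 rose with FB23-2 (83.3%, against 25.4% of all genes). With CS2, 0 of 6 were called (49.7% of all genes, in either direction). DNAJB9, a J protein that holds IRE1 in its inactive state and is induced by XBP1, had 66.1, 76.8 and 63.7 CPM with FB23-2, 26.6, 27.8 and 28.2 CPM with CS2, and 36.0, 29.1 and 26.7 CPM with DMSO. Its FB23-2 libraries lay far above the others, while CS2 and DMSO overlapped. DNAJB9 rose by 1.17 ± 0.11 with FB23-2 (edgeR adjusted p = 2.63e-08) and had -0.15 ± 0.11 with CS2 (edgeR adjusted p = 0.253). DNAJC3, which also restrains PERK, rose by 0.95 ± 0.08 with FB23-2, DNAJC10, a J protein with reductase domains, by 0.92 ± 0.08, and MANF, a secreted factor that binds HSPA5, by 0.79 ± 0.08. DNAJB11, a cochaperone that delivers clients to HSPA5, rose by 0.42 ± 0.09, and its CS2 value was -0.20 ± 0.09 (edgeR adjusted p = 0.0629). Other genes cover 23.2% of the exon bases of DNAJB11, among them AC068631.2 on the same strand. It shares 7.1% of its windows of 50 bases with other genes, so its counts are less certain.

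SDF2L1, a small partner of DNAJB11, was the cofactor that did not pass with either compound when all libraries were used. It had 62.0, 36.3 and 66.2 CPM with FB23-2, 46.7, 35.9 and 55.8 CPM with CS2, and 70.4, 59.9 and 54.0 CPM with DMSO. The groups overlapped, and the second library of both treated groups was the lowest. SDF2L1 had a log2 fold change of -0.17 ± 0.24 with FB23-2 (edgeR adjusted p = 0.589), which turned to 0.06 (adjusted p = 0.785) without FB23-2 replicate 2, and its SE was the largest of the 34 genes. Without that library SDF2L1 also passed for FB23-2 against CS2 (0.47, adjusted p = 0.0397) and as lower for CS2 against DMSO (-0.41, adjusted p = 0.0488). Its merged exons are the shortest of the set, at 1099 bases. These library values, like those of SEC61B and CRELD2 below, were chosen for print after they were seen.

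All 3 genes of the lectin cycle, which retains glycoproteins in the ER until they fold, rose with FB23-2 (25.4% of all genes). CALR rose by 0.64 ± 0.07 and CANX by 0.62 ± 0.08, and with CS2 CALR rose by 0.22 ± 0.07 and CANX by 0.32 ± 0.08. Between the compounds CALR was higher with FB23-2 by 0.42 ± 0.07 and CANX by 0.30 ± 0.08. UGGT1, the folding sensor that returns glycoproteins to the lectins, rose by only 0.20 ± 0.07 with FB23-2 (edgeR adjusted p = 0.0262). That call was lost without FB23-2 replicate 1 (0.20, adjusted p = 0.0521), without DMSO replicate 1 (0.18, 0.088), 2 (0.21, 0.0558) or 3 (0.20, 0.0735), and with no filter on low counts (0.19, 0.0865).

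Among the 7 disulfide enzymes, 5 rose with FB23-2 (71.4%, against 25.4% of all genes), 0 fell (26.7% of all genes) and 2 did not pass. PDIA4, a disulfide isomerase that works with HSPA5, rose by 0.87 ± 0.07 and PDIA3, the partner of the lectins, by 0.71 ± 0.08. The rise was smaller for PDIA6 (0.40 ± 0.07), which also acts on IRE1, and for P4HB (0.40 ± 0.07), the general disulfide isomerase. With CS2, PDIA3 (0.30 ± 0.08) and P4HB (0.25 ± 0.07) rose, PDIA4 (0.13 ± 0.07) and PDIA6 (-0.17 ± 0.07) did not pass, and the calls of PDIA3 (0.20) and P4HB (0.13) were lost when libraries were corrected for gene span. PDIA3 shares 15.3% of its windows with other genes, among them the pseudogene PDIA3P1, which had log2 fold changes of 0.49 with FB23-2 and 0.27 with CS2. ATP6V1C2 overlaps 25.2% of the exon bases of PDIA6 on the other strand and did not pass in any comparison.

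The paralogous oxidases ERO1A and ERO1B, which pass electrons from disulfide isomerases to oxygen, were not called alike. ERO1A rose by 0.67 ± 0.10 with FB23-2 and had -0.12 ± 0.10 with CS2, while ERO1B had -0.02 ± 0.07 with FB23-2 and fell by 0.28 on the log2 scale (SE 0.07, edgeR adjusted p = 0.00232) with CS2. The ratio of ERO1A to ERO1B counts was 0.492, 0.530 and 0.699 in the FB23-2 libraries, 0.364, 0.397 and 0.429 with CS2, and 0.339, 0.348 and 0.377 with DMSO, each listed from low to high. The FB23-2 ratios lay above all others, and those of CS2 and DMSO overlapped. CRELD2, an ER stress protein with reported disulfide isomerase activity, had 71.9, 48.1 and 60.4 CPM with FB23-2, 65.2, 57.1 and 60.4 CPM with CS2, and 55.6, 55.1 and 56.9 CPM with DMSO. FB23-2 overlapped both other groups, and its replicate 2 was the lowest of all. The log2 fold change of CRELD2 with FB23-2 was 0.10 ± 0.11 (edgeR adjusted p = 0.447) with all libraries, 0.25 (adjusted p = 0.0162) without FB23-2 replicate 2 and -0.03 (adjusted p = 0.81) without FB23-2 replicate 1.

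**Figure D3:**
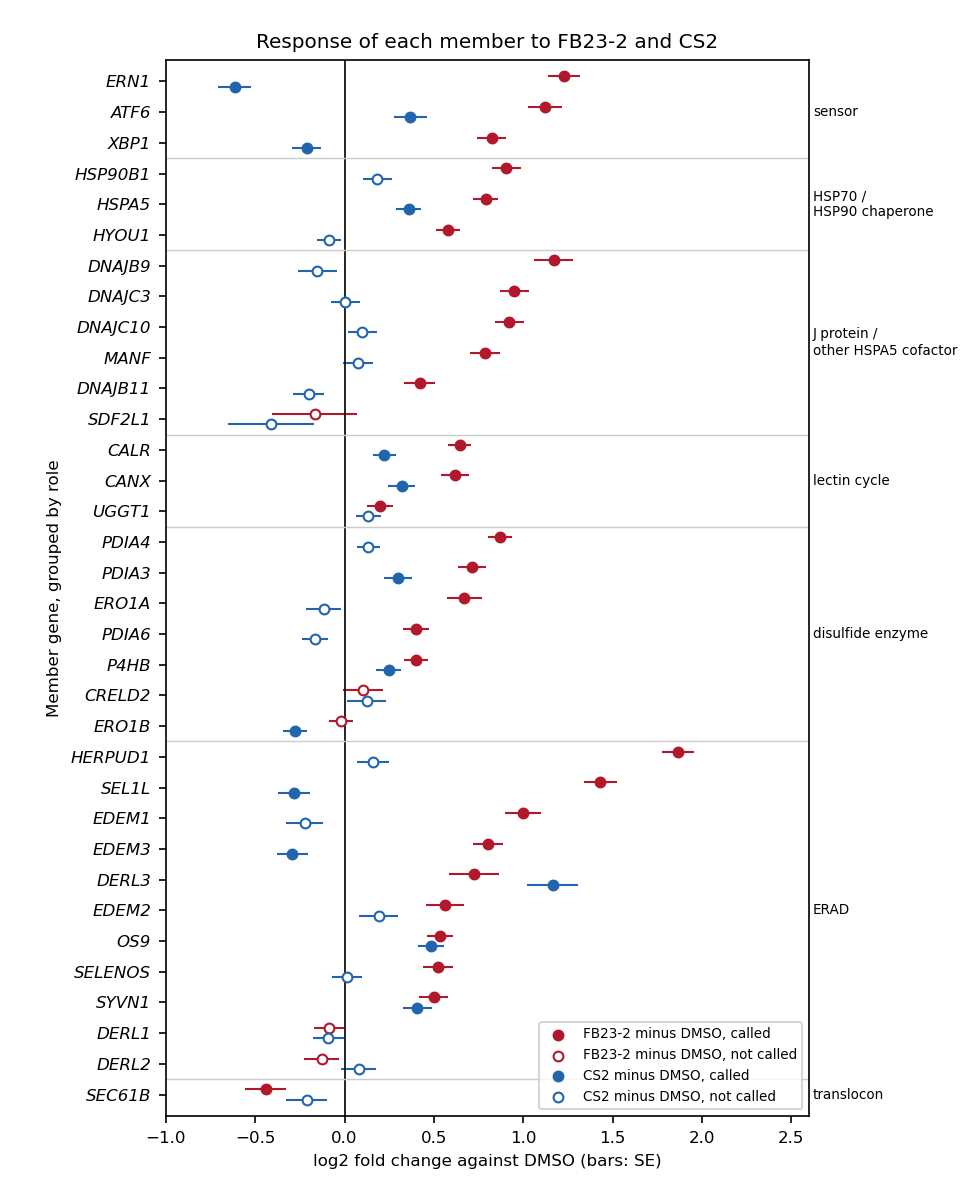
Log2 fold change of each gene against DMSO with its SE, for FB23-2 (red) and CS2 (blue), with genes grouped by role; filled points were called and open points were not. FB23-2 points lie to the right of 0 for all but ERO1B, SDF2L1, DERL1, DERL2 and SEC61B, while CS2 points lie on both sides between -0.615 for ERN1 and 1.16 for DERL3.

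Of the 11 genes of ERAD, 9 rose with FB23-2 (81.8%, against 25.4% of all genes) and 0 fell (26.7% of all genes). With CS2, 3 rose (27.3%, against 24.3% of all genes) and 2 fell (18.2%, against 25.3%). HERPUD1 (ENSG00000051108, chromosome 16, 56932048 to 56944863, plus strand), which brings the ligase complex together, changed the most of all 34 genes. It had 139, 140 and 120 CPM with FB23-2, 41.1, 42.0 and 39.3 CPM with CS2, and 40.1, 35.9 and 33.5 CPM with DMSO. The FB23-2 libraries were apart from all others, and CS2 overlapped DMSO. HERPUD1 rose 3.64-fold with FB23-2 (log2 fold change 1.87 ± 0.09, edgeR adjusted p = 3.69e-12) and had 0.16 ± 0.09 with CS2 (edgeR adjusted p = 0.151).

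The ligase complex itself moved in part. SEL1L (ENSG00000071537, chromosome 14, 81471549 to 81533861, minus strand), the adaptor that holds the complex together, had 279, 341 and 276 CPM with FB23-2, 83.1, 94.5 and 94.8 CPM with CS2, and 102, 117 and 112 CPM with DMSO. FB23-2 was highest and CS2 lowest, without overlap. SEL1L rose by 1.43 ± 0.09 with FB23-2 (edgeR adjusted p = 1.51e-10) and was lower by -0.28 ± 0.09 with CS2 (edgeR adjusted p = 0.0128). The CS2 call was not kept without CS2 replicate 1 (-0.22, adjusted p = 0.0753) or DMSO replicate 2 (-0.24, 0.0696). FB23-2 exceeded CS2 by 1.72 ± 0.09 (edgeR adjusted p = 1.00e-11).

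SYVN1, the ubiquitin ligase HRD1, had 85.6, 91.6 and 86.5 CPM with FB23-2, 85.8, 86.5 and 75.4 CPM with CS2, and 61.3, 60.2 and 65.1 CPM with DMSO. Both compounds stood above DMSO and overlapped each other. SYVN1 rose by 0.50 ± 0.08 with FB23-2 (edgeR adjusted p = 3.58e-05) and by 0.41 ± 0.08 with CS2 (edgeR adjusted p = 3.27e-04), and the difference between the compounds was 0.09 ± 0.08 (edgeR adjusted p = 0.343), or 0.28 (adjusted p = 0.00543) with the span correction. OS9, the lectin that hands glycoproteins to SEL1L, had 241, 262 and 253 CPM with FB23-2, 248, 254 and 226 CPM with CS2, and 176, 167 and 178 CPM with DMSO. As with SYVN1, the treated groups overlapped each other and neither overlapped DMSO. Its log2 fold changes were 0.54 ± 0.07 with FB23-2 (edgeR adjusted p = 4.2e-06) and 0.48 ± 0.07 with CS2 (edgeR adjusted p = 1.6e-05), with a difference of 0.05 ± 0.07 (edgeR adjusted p = 0.551). Antisense or overlapping genes cover 13.5% of the exon bases of OS9 and 10.1% of those of SYVN1.

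The EDEM proteins trim mannose from glycoproteins and so mark them for removal. EDEM1 had 30.3, 27.1 and 27.0 CPM with FB23-2, 11.9, 11.9 and 12.3 CPM with CS2, and 13.5, 13.8 and 14.8 CPM with DMSO. Its groups did not overlap, with CS2 the lowest. EDEM1 rose by 1.00 ± 0.10 with FB23-2 (edgeR adjusted p = 9.28e-08) and had -0.22 ± 0.10 with CS2 (edgeR adjusted p = 0.0816). EDEM3 had 132, 150 and 126 CPM with FB23-2, 59.3, 65.5 and 66.3 CPM with CS2, and 74.6, 82.96 and 76.2 CPM with DMSO, again in 3 separate ranges with CS2 the lowest. It rose by 0.81 ± 0.08 with FB23-2 (edgeR adjusted p = 1.65e-07) and was lower by -0.29 ± 0.08 with CS2 (edgeR adjusted p = 0.00764), which no longer passed without DMSO replicate 2 (-0.25, adjusted p = 0.0514). EDEM2 rose less with FB23-2, by 0.56 ± 0.11, and had 0.19 ± 0.11 with CS2 (edgeR adjusted p = 0.152). SELENOS, a selenoprotein that ties the complex to the extraction ATPase VCP, rose by 0.52 ± 0.08 with FB23-2 and had 0.01 ± 0.09 with CS2.

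The Derlins, thought to form part of the exit channel, did not move together. DERL1 (-0.09 ± 0.09 with FB23-2, -0.09 ± 0.09 with CS2) and DERL2 (-0.13 ± 0.10 with FB23-2, 0.08 ± 0.10 with CS2) did not pass against DMSO. DERL3, which is known as an XBP1 target in secretory cells, had 8.61, 7.98 and 8.56 CPM with FB23-2, 12.8, 9.25 and 12.1 CPM with CS2, and 5.23, 5.08 and 4.90 CPM with DMSO. The groups did not overlap, and CS2 was the highest. DERL3 rose by 0.72 ± 0.14 with FB23-2 (edgeR adjusted p = 2.57e-04) and by 1.16 ± 0.14 with CS2 (edgeR adjusted p = 1.145e-06). It was the single member lower with FB23-2 than with CS2, by -0.44 ± 0.14 (edgeR adjusted p = 0.00901), which no longer passed without CS2 replicate 1 (-0.35, adjusted p = 0.055) or with the correction for gene span (-0.28, adjusted p = 0.0684). SMARCB1, on the other strand, covers 77% of the exon bases of DERL3, so the counts of DERL3 are uncertain, and SMARCB1 had log2 fold changes of -0.35 with FB23-2 and -0.32 with CS2.

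SEC61B, the beta subunit of the channel through which chains enter the ER, was the member that fell with FB23-2. It had 66.2, 50.2 and 70.8 CPM with FB23-2, 68.2, 65.7 and 85.4 CPM with CS2, and 87.8, 83.5 and 82.6 CPM with DMSO. All FB23-2 libraries were below DMSO, replicate 2 the furthest, and CS2 overlapped both. The log2 fold change was -0.44 ± 0.11 with FB23-2 (edgeR adjusted p = 0.00296) and -0.21 ± 0.11 with CS2 (edgeR adjusted p = 0.129), and SEC61B was called lower with FB23-2 in every alternative, also without FB23-2 replicate 2, other than the 1.5-fold minimum, which it did not reach. Its merged exons, at 1190 bases, are the shortest after those of SDF2L1.

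**Figure D4:**
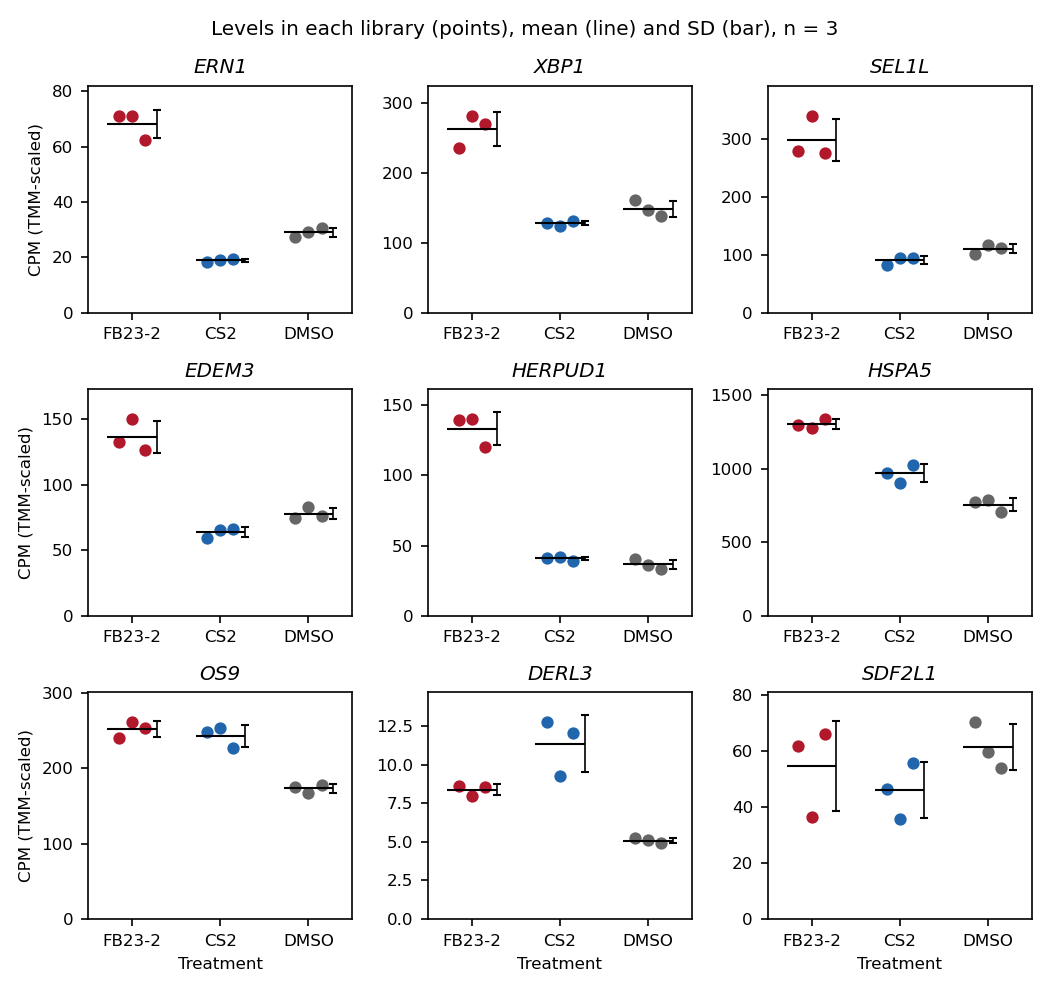
CPM of 9 of the genes in each library (points) with the mean (line) and SD (bar) of 3 libraries, FB23-2 in red, CS2 in blue and DMSO in grey, on axes that start at 0. ERN1, XBP1, SEL1L and EDEM3 are highest with FB23-2 and lowest with CS2, OS9 lies above DMSO in both treated groups, which overlap, DERL3 is highest with CS2, and the groups of SDF2L1 overlap.

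Set against each other, the compounds differed over most of the set. FB23-2 exceeded CS2 in ERN1, ATF6 and XBP1, in 3 of 3 HSP70 and HSP90 chaperones, 5 of 6 cofactors and 5 of 7 disulfide enzymes. The same held for 2 of 3 lectin cycle genes and 6 of 11 genes of ERAD (54.5%). Of all genes tested, 29.7% were higher with FB23-2 than with CS2. The median log2 difference over the 34 genes was 0.54, against 0.01 over all genes tested. After ERN1, SEL1L and HERPUD1 (1.71 ± 0.09), the largest were DNAJB9 (1.32 ± 0.11), EDEM1 (1.22 ± 0.10), EDEM3 (1.10 ± 0.09) and XBP1 (1.04 ± 0.08). The difference did not pass for P4HB (0.15 ± 0.07, edgeR adjusted p = 0.0611, past the threshold in 7 of 18 alternatives), UGGT1, CRELD2, SDF2L1, SYVN1, OS9, DERL1, DERL2 and SEC61B. Against DMSO the median was 0.66 with FB23-2 and 0.08 with CS2, while over all genes it was -0.001 with FB23-2 and -0.002 with CS2. By the size of the change, 19 of the 34 genes rose by more than 1.5-fold with FB23-2 (14.1% of all genes) and 0 fell (16.2%). With CS2, 1 rose (13.2%) and 1 fell (15.9%) by that much, and 16 exceeded it between FB23-2 and CS2 (19.8%). In 28 of the 34 genes every FB23-2 library lay above every DMSO library (29.5% of all genes), and with CS2 this was so in 12 (29.9%). All libraries lay below those of DMSO in 1 gene with FB23-2 (30.3% of all genes) and in 9 with CS2 (30.8%). DERL3 was the 1 gene whose FB23-2 libraries all lay below those of CS2 (31.6%).

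Other genes of the ER and the unfolded protein response, 129 on 6 lists of which 126 were tested, were called in shares that varied from list to list. The PERK arm list holds 12 genes, but ATF4, TRIB3 and others on it belong to the wider integrated stress response and are not specific to PERK. Activity of PERK was not measured. With FB23-2, 11 rose (91.7%, against 25.4% of all genes) and 0 fell (26.7% of all genes). With CS2, 5 rose (41.7%, against 24.3% of all genes) and 1 fell (8.33%, against 25.3%). TRIB3 rose the most, to a mean of 166 CPM with FB23-2 against 5.16 CPM with DMSO. The 11 include NUPR1, which had 1.01 CPM with FB23-2, 0.142 CPM with CS2 and 0.065 CPM with DMSO and passed the filter on low counts only through the FB23-2 libraries. ATF4 itself rose by 1.34 ± 0.08 with FB23-2 and fell by 0.56 on the log2 scale with CS2 (SE 0.08). EIF2AK3, the gene of PERK, rose by 0.29 ± 0.10 with FB23-2 and had 0.01 ± 0.10 with CS2.

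Over all genes tested, 25.4% rose and 26.7% fell with FB23-2, and 24.3% rose and 25.3% fell with CS2. Of 23 tested regulators and trafficking targets, 13 rose (56.5%) and 3 fell (13%) with FB23-2. With CS2, 7 rose (30.4%) and 3 fell (13%). The COPII coat gene SEC24D rose by 0.88 ± 0.10 with FB23-2, and the ER-anchored transcription factor CREB3L2 rose by 0.60 ± 0.11 with FB23-2 but was lower with CS2, by -1.14 ± 0.11. Of 26 genes of the translocon, signal peptidase and N-glycosylation, 15 rose (57.7%) and 1 fell (3.85%) with FB23-2, with TRAM1 at 0.92 ± 0.11 and SEC11C at -0.44 ± 0.08. With CS2, 6 rose (23.1%) and 5 fell (19.2%), near or below the shares of all genes. Of 21 further disulfide and proline isomerases, 11 rose (52.4%) and 3 fell (14.3%) with FB23-2, and 11 rose (52.4%) and 4 fell (19%) with CS2. PPIC, a peptidyl-prolyl isomerase of the ER, rose by 2.44 ± 0.20 with FB23-2 and by 1.10 ± 0.21 with CS2. QSOX1, a secreted sulfhydryl oxidase, rose by 1.91 ± 0.14 with FB23-2 and by 1.47 ± 0.14 with CS2, and the peroxidase GPX7 was lower by -1.305 ± 0.16 with FB23-2 and -0.97 ± 0.16 with CS2.

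Of 15 genes listed as further HSP70 and lectin cofactors, 8 rose (53.3%, against 25.4% of all genes) and 3 fell (20%, against 26.7%) with FB23-2. With CS2, 6 rose (40%, against 24.3%) and 2 fell (13.3%, against 25.3%). ERGIC1, on this list although it is a trafficking protein and not a cofactor, rose by 1.16 ± 0.10 with FB23-2 and by 0.73 ± 0.10 with CS2. DNAJB12, a J protein of the ER membrane, was lower by -0.59 ± 0.12 with FB23-2 and -0.82 ± 0.12 with CS2. Of the further genes of ERAD and ER-phagy, 9 of 29 were higher (31%) and 6 lower (20.7%) with FB23-2, and 7 were higher (24.1%) and 4 lower (13.8%) with CS2. The shares higher lie near those of all genes with either compound. CCPG1, an ER-phagy receptor, rose by 2.11 ± 0.13 with FB23-2 and 0.37 ± 0.13 with CS2. BAG6 (-0.47 ± 0.07) and the ubiquitin-conjugating enzyme UBE2J2 (-0.47 ± 0.09) had the largest declines of this list with FB23-2, and VCP, the ATPase that extracts chains from the ER, was also lower (-0.35 ± 0.09).

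**Figure D5:**
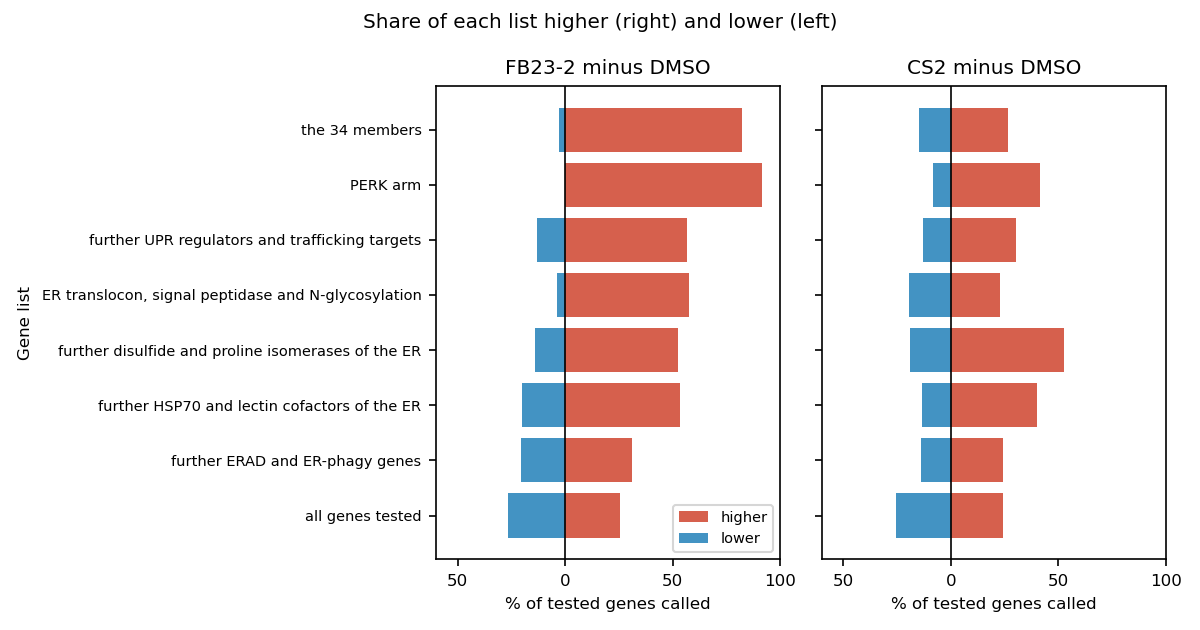
Share of each list called higher (red, right of 0) and lower (blue, left of 0) with FB23-2 and with CS2 against DMSO, in percent of the genes tested. With FB23-2 the 34 genes (82.4% higher) and the PERK arm (91.7%) stand apart from all genes tested (25.4%). The PERK arm list is not specific to PERK, and its share includes NUPR1, which passed the filter on low counts only through the FB23-2 libraries. With CS2 the 34 genes (26.5% higher, 14.7% lower) lie near or below all genes (24.3% and 25.3%).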

How the data were processed

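Messenger RNA libraries of H69 (3 each with FB23-2, CS2 and DMSO) were analysed, and the 6 samples of H82 were not analysed here. The deposited table holds raw counts of reads for each Ensembl gene ID. Total RNA was taken with TRIzol and libraries were made with a Hieff mRNA kit, per the labels' protocols, and hg38 is the only build in the submitters' processing notes. Aligner, counting tool, annotation and strand: not given in the sources used here. Columns named FB23 were taken as FB23-2, the only H69 treatment with that start.

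The analysis used edgeR 4.0.16 under R 4.3.3: filterByExpr by group (minimum count 10, minimum total 15), TMM scaling and a single robust quasi-likelihood fit of all 9 libraries, so that the groups share an estimate of the spread. Adjusted p-values are Benjamini-Hochberg values over 19781 genes, and an SE is the log2 fold change divided by the square root of F. Whether the libraries, called biological replicates by the series, came from separate cultures is not stated, so p-values cover only the spread among them. CPM are scaled by TMM. Spans, exons and shared windows of 50 bases came from GENCODE 29 (GRCh38), and promoters from RefSeq, matched by symbol for 31 of 34 genes, in Python 3.11.15. Some marker genes are not reported here.

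The members and lists were chosen with earlier results of these data known. Full values are given for HSPA5, XBP1, ATF6, ERN1, the 5 largest called changes per comparison and those called higher with one compound and lower with the other. From each further list up to 2 of the largest called changes in each direction are named, and EIF2AK3 and VCP were added after their values were seen. Alternatives were DESeq2 1.42.0, RLE or library size scaling, no mitochondrial genes, other filters, only the groups compared, the replicate block, a span correction (spline with 5 degrees of freedom), a 1.5-fold minimum and leaving out each library.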

Additional observations from a re-analysis of the deposited data

How the results depend on the processing

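The counts of members higher with FB23-2 stayed between 27 and 29 and those higher with FB23-2 than with CS2 between 24 and 26 in every alternative that kept the same threshold. Over all genes the same counts ran from 4304 to 5271 and from 5079 to 6051. Leaving out each library gave 27 to 29 members higher and 1 lower with FB23-2, 9 to 10 higher and 2 to 9 lower with CS2, and 24 to 26 higher and 1 to 3 lower between the compounds. Over all genes it gave 4304 to 5223 higher and 4491 to 5329 lower with FB23-2. With CS2 it gave 4083 to 5462 higher and 4262 to 5562 lower, and between the compounds 5453 to 5903 and 5512 to 5945. The number lower with CS2, 5, was 8 with only the groups compared, 8 with the replicate block and 10 with the correction for gene span. Over all genes the number lower was 5333, 5228 and 4260 in these runs, against 5014 in the main fit. The number lower with FB23-2 than with CS2, 1, was 2 with no filter, 3 with the replicate block and 0 with the span correction. Over all genes it was 6176, 6112 and 5618 in these runs, against 5929 in the main fit. With a minimum change of 1.5-fold, 1 member was higher (13.2% of all genes) and 1 lower (15.9%) with CS2. None of the members was lower by that much with FB23-2 against DMSO (16.2% of all genes) or against CS2 (19.2%). The cause of these shifts was not tested, except that the 1.5-fold minimum removes small changes by its construction.

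Same-numbered libraries of DMSO and the compounds did not deviate together (correlations from -0.03 to 0.02). Those of CS2 and FB23-2 had 0.17, 0.12 and 0.05, above all pairs of these groups with other numbers (-0.14 to 0.020). The main fit took no pairing from the numbers. Whether CS2 and FB23-2 libraries share a replicate effect was not tested. With the replicate block 28 members were higher and 1 lower with FB23-2, 10 higher and 8 lower with CS2, and 25 higher and 3 lower between the compounds. Over all genes the block gave 5205 higher and 5493 lower with FB23-2, and 5043 and 5228 with CS2. Between the compounds it gave 6024 higher and 6112 lower.

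Near the threshold with CS2, DNAJB11 passed as lower in 7 of 18 alternatives, and PDIA6 and SEC61B in 5 each. Signs turned only for members that were not called. With the span correction these were DERL2 (-0.030) and SELENOS (-0.042) with CS2, and CRELD2 (0.17) and UGGT1 (-0.090) between the compounds. DERL1 turned between the compounds with no filter (-0.0068), and DNAJC3 with CS2 at a mean of at least 1 CPM (-0.0051). On leaving out each library, log2 fold changes ran from -0.037 to 0.064 for DNAJC3 and from -0.0097 to 0.051 for SELENOS with CS2. With FB23-2 they ran from -0.31 to 0.064 for SDF2L1, from -0.033 to 0.25 for CRELD2 and from -0.0468 to 0.011 for ERO1B. Between the compounds they ran from -0.16 to 0.12 for CRELD2 and from -0.052 to 0.053 for DERL1. RLE and library size scaling moved the median of all genes by at most 0.01. Of 648 counts of the other lists under these alternatives, 629 stayed within 1.5 times. Precision rests on 3 libraries a group.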
